A study of Zea mays with 12 samples.

Results

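ADP-glucose is the glucosyl donor from which starch is made. In the cereal endosperm most of it is formed outside the plastid by ADP-glucose pyrophosphorylase, an enzyme assembled from large and small subunits, and is then carried into the amyloplast by a transporter of the inner envelope. The maize mutants shrunken2, brittle2 and brittle1 lack the endosperm large subunit, the endosperm small subunit and the transporter, and each has long been known for kernels that collapse for want of starch. The 4 genes described here were chosen by identifier from the 34348 genes of the deposited tables. They were sh2 (GRMZM2G429899, large subunit), bt2 (GRMZM2G068506, small subunit), agpsl1 (GRMZM2G163437, a second small subunit, known as the leaf form) and bt1 (GRMZM2G144081, the transporter).

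Their transcripts were measured by RNA sequencing of whole endosperms taken 16 days after pollination from self-pollinated, field-grown maize of the W22 inbred. There were 3 genotypes with 4 biological replicates each, namely WT, nkd1-Ds and nkd2-Ds, in which a Ds transposon allele is named for naked endosperm1 or naked endosperm2, a pair of related transcription factors known for their role in aleurone identity. Levels are in RPKM, read counts divided by the length of the gene and by a factor for the library that the authors chose, so that genes can be compared per length. In whole tissue, fewer cells of a type and less RNA per cell cannot be told apart.

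Each library held 35.3 to 48.0 megareads, as recovered from the values. The transcript of nkd1 itself averaged 49.2 ± 3.41 RPKM (WT), 12.8 ± 1.08 RPKM (nkd1-Ds) and 35.1 ± 1.57 RPKM (nkd2-Ds; SD, n = 4 each). That of nkd2 averaged 19.5 ± 0.762 RPKM (WT), 1.14 ± 0.141 RPKM (nkd2-Ds) and, in the libraries labelled nkd1-Ds, 1.10 ± 0.0780 RPKM (SD, n = 4 each). The nkd1-Ds libraries were therefore low in both transcripts, and every statement about them refers to the libraries labelled so. The 29 zein genes picked by name, which encode seed storage proteins, took 45.0 ± 3.19% of all reads (WT), 28.3 ± 0.785% (nkd1-Ds) and 42.2 ± 5.78% (nkd2-Ds; SD, n = 4 each). Zein genes without such a name are not in these shares. The authors' library factors ran from 34.3 to 40.5 megareads in nkd1-Ds, above the 27.3 to 31.1 megareads of WT, and this scale bears on every nkd1-Ds value below.

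Levels of the 4 genes kept the same order in all 12 libraries, with sh2 highest, then bt2, bt1 and agpsl1. In WT the mean level of sh2 was 1.43 times that of bt2, that of bt2 was 2.04 times that of bt1, and that of bt1 was 12.3 times that of agpsl1. Neighbours in this order did not overlap within any genotype: the smallest gap, 334 RPKM, lay between the lowest bt2 and the highest bt1 library of nkd1-Ds. Ranked among all genes of a library, sh2 stood at places 23 to 34 and bt2 at 35 to 42. The transporter bt1 stood at 49 to 72, and agpsl1 at 622 to 1196. Together the 4 genes took 0.972 ± 0.0631% of all reads (WT), 1.19 ± 0.0924% (nkd1-Ds) and 0.833 ± 0.0912% (nkd2-Ds; SD, n = 4 each). The library with the fewest reads for any of them held 3054 reads of agpsl1, a counting error of 1.81%, so the spread of levels between replicates exceeded counting error for each gene.

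**Figure D1:**
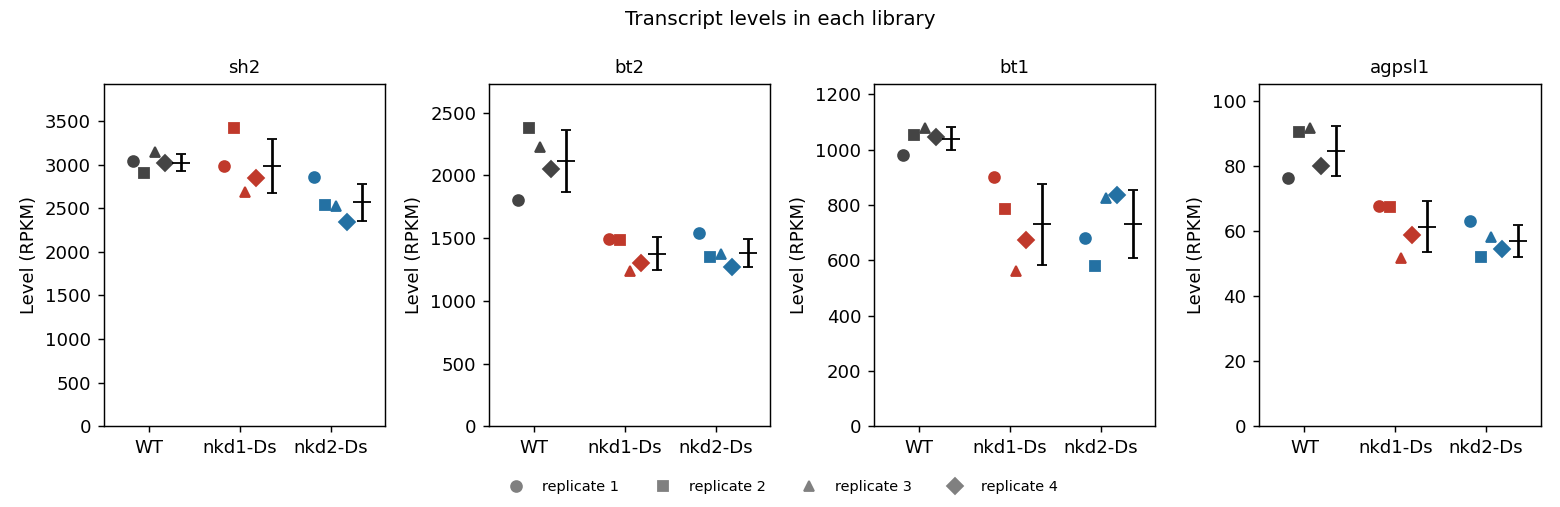
RPKM of sh2, bt2, bt1 and agpsl1 in each library, by genotype. Points are the 4 replicates, marked by shape, and the bar beside them is the mean with its SD; each vertical axis starts at 0. All WT points of bt2, bt1 and agpsl1 lie above all points of both mutants, whereas those of sh2 overlap with nkd1-Ds.

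On the authors' scale bt2, agpsl1 and bt1 were called lower than WT in both mutants, and sh2 in neither. With libraries scaled by total reads, only bt2 and agpsl1 in nkd2-Ds kept that call, as set out after the comparison of the mutants. Every one of the 4 passed the filter on low values and was tested among 26706 genes with limma on log2(RPKM + 1), with Benjamini-Hochberg adjustment over all of them. At an adjusted p under 0.05, 3 of the 4 were called lower in nkd1-Ds, where 29.2% of all genes tested were called lower, and 3 of the 4 in nkd2-Ds, where 13.6% were. Values of the groups did not overlap for 3 of the 4 in nkd1-Ds and for all 4 in nkd2-Ds, against 26.6% and 14.5% of all genes that were lower without overlap. The mutant comparisons share the WT libraries, so they are not independent of each other.

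The large subunit gene sh2 had 3037, 2902, 3138 and 3012 RPKM in WT replicates 1 to 4. In nkd1-Ds it had 2987, 3415, 2689 and 2840.2 RPKM, and in nkd2-Ds 2856, 2535, 2527 and 2343 RPKM. The nkd1-Ds libraries lay on both sides of the WT range, with replicate 2 the highest of all 12, while the nkd2-Ds libraries all lay below WT. Means were 3022 ± 97.2 RPKM (WT), 2983 ± 313 RPKM (nkd1-Ds) and 2565 ± 213 RPKM (nkd2-Ds; SD, n = 4 each). On the log2(RPKM + 1) scale the difference from WT was -0.02 ± 0.110 in nkd1-Ds (SE; limma adjusted p = 0.869), with a 95% interval of -0.26 to 0.21. In nkd2-Ds it was -0.24 ± 0.110 (SE), with a 95% interval of -0.48 to -0.00088. Although the unadjusted limma p was 0.0493 the adjusted p was 0.134, so the lower level did not pass. With libraries scaled by total reads instead, the nkd1-Ds difference turned to 0.52 and was called (limma adjusted p = 0.000379), and with quantile normalization to 0.53 (limma adjusted p = 0.000289).

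The small subunit gene bt2 had 1804, 2376, 2230.3 and 2054 RPKM in WT. In nkd1-Ds it had 1490.4, 1484, 1236 and 1300.4 RPKM, and in nkd2-Ds 1539, 1353, 1371 and 1272 RPKM. Both mutant groups lay wholly below WT and covered nearly the same range. The mean was 2116 ± 246 RPKM (WT), 1378 ± 129 RPKM (nkd1-Ds) and 1384 ± 112 RPKM (nkd2-Ds; SD, n = 4 each), so the mutants lay 34.9% and 34.6% below WT. The log2 difference was -0.62 ± 0.112 in nkd1-Ds (SE; limma adjusted p = 0.000422) and -0.61 ± 0.112 in nkd2-Ds (SE; limma adjusted p = 0.00140). By total reads the nkd1-Ds difference was -0.068 and not called. Of the 94 genes with a WT mean of at least 500 RPKM, 49 had a lower difference than bt2 in nkd1-Ds but only 2 in nkd2-Ds. Among these abundant genes 68.1% were called lower in nkd1-Ds and 28.7% in nkd2-Ds.

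The second small subunit gene, agpsl1, fell in both mutants like bt2, at a far lower level. It had 76.2, 90.4, 91.5 and 79.98 RPKM in WT, 67.5, 67.4, 51.5 and 58.8 RPKM in nkd1-Ds, and 63.1, 51.9, 58.0 and 54.3 RPKM in nkd2-Ds. No mutant library reached the lowest WT library. Means were 84.5 ± 7.60, 61.3 ± 7.69 and 56.8 ± 4.89 RPKM (SD, n = 4 each). The log2 difference from WT was -0.46 ± 0.0959 in nkd1-Ds (SE; limma adjusted p = 0.0012) and -0.56 ± 0.0959 in nkd2-Ds (SE; limma adjusted p = 0.000792). By total reads the nkd1-Ds difference was 0.080 and not called. The sources used here do not give how reads matching several related genes were counted, so some reads of bt2, agpsl1 and their relatives may be shared.

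The transporter gene bt1 had 979.8, 1053, 1077 and 1044 RPKM in WT. In nkd1-Ds it had 902, 785, 560.04 and 673 RPKM, and in nkd2-Ds 681, 579.9, 826 and 834 RPKM. The WT libraries were tight, with a coefficient of variation of 3.99%, whereas both mutant groups were scattered, with 20.1% in nkd1-Ds and 16.8% in nkd2-Ds, and all mutant libraries lay below WT. Means were 1038 ± 41.4 RPKM (WT), 729.9 ± 147 RPKM (nkd1-Ds) and 730.2 ± 123 RPKM (nkd2-Ds; SD, n = 4 each). The log2 difference was -0.53 ± 0.146 in nkd1-Ds (SE; limma adjusted p = 0.00764) and -0.52 ± 0.146 in nkd2-Ds (SE; limma adjusted p = 0.0190). Without nkd2-Ds replicate 2, the library lowest in bt1 in that group, the nkd2-Ds difference was -0.42 and no longer passed (limma adjusted p = 0.0574). By total reads bt1 was called in neither mutant.

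On the authors' scale the nkd2-Ds libraries split for bt1 but not in the same way for the subunits. Replicates 3 and 4 were higher in bt1 than replicates 1 and 2, whereas sh2 and bt2 were highest in replicate 1 and lowest in replicate 4. The level of agpsl1 was highest in replicate 1 and lowest in replicate 2. As shares of all reads the contrast was lost: sh2, bt2, agpsl1 and bt1 were each higher in replicates 3 and 4 than in 1 and 2. For replicates 1 to 4 these shares were 0.439, 0.472, 0.533 and 0.511% for sh2, and 0.213, 0.226, 0.260 and 0.250% for bt2. The zein share of reads in these libraries was 49.7%, 43.6%, 38.6% and 36.8% for replicates 1 to 4, lower where bt1 was higher. In nkd1-Ds, where bt1 was as scattered, the zein share was 29.1%, 28.7%, 27.3% and 28.2%, highest where bt1 was highest and lowest where it was lowest. The summed level of 4 aleurone markers was 76.6, 93.6, 124 and 133 RPKM in the same order in nkd2-Ds, higher in the replicates where bt1 was higher. This was not particular to aleurone markers: the sum of embryo markers there was 31.0, 38.1, 46.4 and 61.5 RPKM. The aleurone sum varied mostly with ole17 and the embryo sum with glb1, at 68.6 ± 24.7 and 34.7 ± 13.2 RPKM in nkd2-Ds (SD, n = 4 each). Of the other aleurone markers, nkd1 was at 34.7, 33.3, 37.1 and 35.4 RPKM, and vp1 and cr4 averaged 1.64 and 1.39 RPKM. The sum of basal transfer layer markers was 19.0, 89.7, 74.5 and 191 RPKM. In nkd1-Ds the aleurone sum was 23.6, 20.9, 19.5 and 18.5 RPKM, highest where bt1 was highest but not lowest where it was lowest. The part of zein share or of any of these markers in the bt1 values was not tested.

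On the authors' scale, direct comparison of the mutants called none of the 4 genes, where 41.8% of all genes tested were called in either direction. The difference of nkd2-Ds from nkd1-Ds was -0.22 for sh2 (95% interval -0.45 to 0.02; limma adjusted p = 0.137) and -0.10 for agpsl1 (-0.31 to 0.10; limma adjusted p = 0.417). For bt2 it was 0.01 (95% interval -0.23 to 0.25; limma adjusted p = 0.964) and for bt1 0.01 (-0.31 to 0.32; limma adjusted p = 0.976). The values of the mutants overlapped for all 4 genes. In this fit the count at an unadjusted p under 0.05 was also 0. A fit of voom weights on recovered reads called 0 after adjustment, with sh2 at an unadjusted p of 0.0219 and an adjusted p of 0.0511. With quantile normalization sh2 was called lower in nkd2-Ds than in nkd1-Ds, at -0.57 (limma adjusted p = 0.000299). With libraries scaled by total reads, sh2, bt2 and agpsl1 were called lower in nkd2-Ds than in nkd1-Ds, at -0.60, -0.38 and -0.48, where the median of all genes was -0.30.

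**Figure D2:**
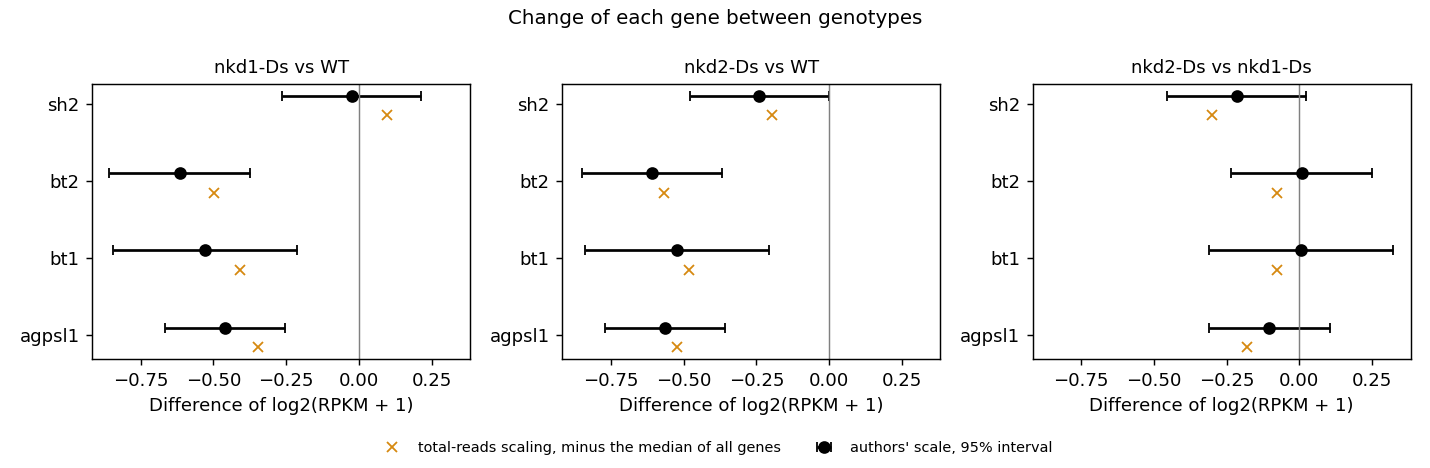
Difference of log2(RPKM + 1) for each gene in the 3 comparisons. Dots are the limma estimates on the authors' scale with 95% intervals; crosses are the estimates with libraries scaled by total reads, after subtracting the median difference of all genes. For bt2, bt1 and agpsl1 the intervals against WT lie wholly below 0, from -0.62 to -0.46 at their centres, whereas that of sh2 in nkd1-Ds spans 0. In nkd2-Ds the sh2 interval ends just below 0, at -0.48 to -0.00088, though sh2 was not called after adjustment.

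The nkd1-Ds differences depended on the scale on which libraries are compared. With libraries scaled by total reads, the median difference of all genes moved to 0.43 in nkd1-Ds and to 0.12 in nkd2-Ds, from -0.02 and -0.01 on the authors' scale. On that scale bt2 differed from WT by -0.068, agpsl1 by 0.080 and bt1 by 0.018 in nkd1-Ds, none of them called. Relative to the median of all genes, the nkd1-Ds differences were 0.10 for sh2, -0.50 for bt2, -0.35 for agpsl1 and -0.41 for bt1. In nkd2-Ds bt2 and agpsl1 were still called lower by total reads, at -0.44 (limma adjusted p = 0.00805) and -0.40 (limma adjusted p = 0.0173), while bt1 at -0.36 was not (limma adjusted p = 0.171). As shares of all reads, bt2 took 0.324 ± 0.0400% in WT and 0.308 ± 0.0181% in nkd1-Ds, whereas sh2 took 0.515 ± 0.0359% and 0.741 ± 0.0663% (SD, n = 4 each).

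**Figure D3:**
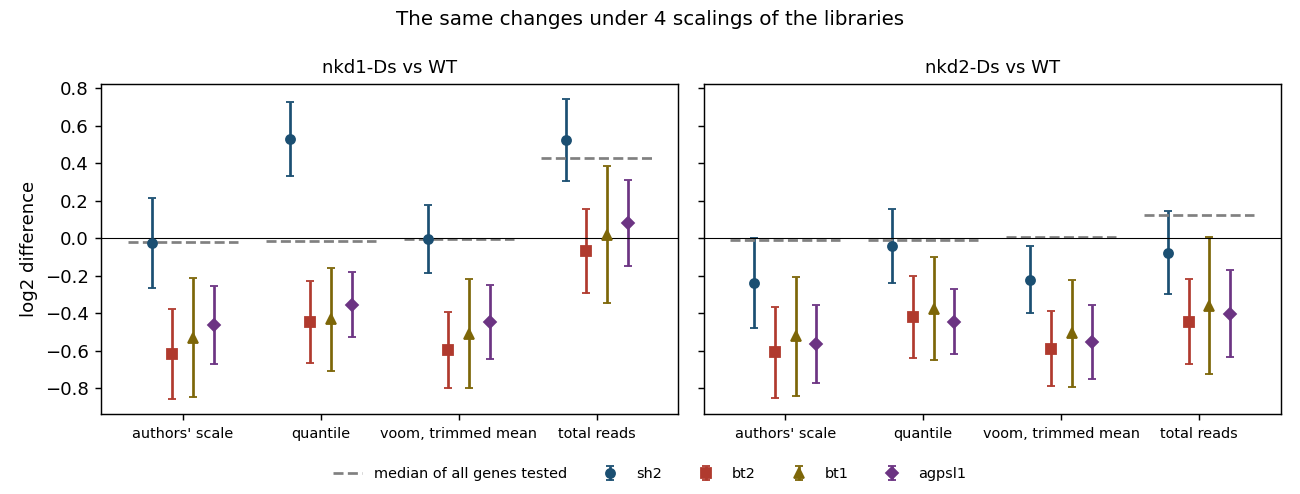
Log2 difference from WT of the 4 genes under 4 ways of scaling the libraries, for nkd1-Ds and nkd2-Ds. Bars are 95% intervals and the dashed lines are the median of all genes tested. In nkd1-Ds the values move up with the dashed line under total reads, to 0.43 for the median, and bt2, bt1 and agpsl1 stay below it; sh2 lies at 0.52 under total reads and 0.53 under quantile normalization.

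A ratio of 2 genes within a library does not depend on the library scale. The ratio of sh2 to bt2, large to small subunit, was 1.68, 1.22, 1.41 and 1.47 in WT replicates 1 to 4. It was 2.004, 2.30, 2.18 and 2.18 in nkd1-Ds, and 1.86, 1.87, 1.84 and 1.84 in nkd2-Ds. The 3 genotypes did not overlap in this ratio, with WT lowest and nkd1-Ds highest. Mean ratios were 1.44 ± 0.191, 2.17 ± 0.123 and 1.85 ± 0.0152 (SD, n = 4 each), and the 4 nkd2-Ds libraries varied by only 0.822% although their sh2 levels varied by 8.31%. The geometric mean ratio was 1.51-fold that of WT in nkd1-Ds (95% interval 1.19 to 1.88) and 1.29-fold in nkd2-Ds (1.10 to 1.53), and that of nkd2-Ds was 0.857 of that of nkd1-Ds (0.802 to 0.934). Each of these 3 comparisons had a two-sided exact permutation p of 0.0286, the smallest that 4 against 4 can give. After adjustment over the 9 ratio tests, a comparison at this floor could pass only if enough of the other ratio tests also reached it. The adjusted p was 0.0643, so by that exact permutation test none passed. Read against all genes, this was a common pattern against WT: 62.9% of the other genes tested had a ratio to bt2 that was higher in nkd1-Ds without overlap, and 69.5% in nkd2-Ds. Between the mutants, 13.9% of the other genes had a ratio to bt2 that was lower in nkd2-Ds without overlap. With agpsl1 added to bt2 the order of the genotypes was the same, with sh2 at 1.39, 2.07 and 1.78 times the sum of bt2 and agpsl1 in WT, nkd1-Ds and nkd2-Ds.

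The ratio of agpsl1 to bt2, the small subunit genes of the 4, was 0.0401 ± 0.00191 (WT), 0.0444 ± 0.00182 (nkd1-Ds) and 0.0411 ± 0.00192 (nkd2-Ds; SD, n = 4 each), and the groups overlapped in every comparison. The exact permutation p was 0.0571 for nkd1-Ds with WT (adjusted 0.103), 0.429 for nkd2-Ds with WT (adjusted 0.429) and 0.0857 between the mutants (adjusted 0.129). Intervals of the geometric mean ratio were 0.989 to 1.19 of WT in nkd1-Ds and 0.912 to 1.119 in nkd2-Ds. Of the sum of bt2 and agpsl1 alone, agpsl1 made up 3.85% (WT), 4.25% (nkd1-Ds) and 3.95% (nkd2-Ds).

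The transporter was compared with the large subunit in the same way. The ratio of bt1 to sh2 was 0.323, 0.363, 0.343 and 0.346 in WT, 0.302, 0.230, 0.208 and 0.237 in nkd1-Ds, and 0.238, 0.229, 0.327 and 0.356 in nkd2-Ds. All nkd1-Ds libraries lay below WT, whereas replicates 3 and 4 of nkd2-Ds lay inside the WT range. The geometric mean in nkd1-Ds was 0.704 of that in WT (95% interval 0.574 to 0.936), with an exact permutation p of 0.0286 (adjusted 0.0643). In nkd2-Ds it was 0.822 of WT (0.631 to 1.10; exact permutation p = 0.2, adjusted 0.257). Of the other genes tested, 20.9% had a ratio to sh2 that was lower in nkd1-Ds than in WT without overlap.

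**Figure D4:**
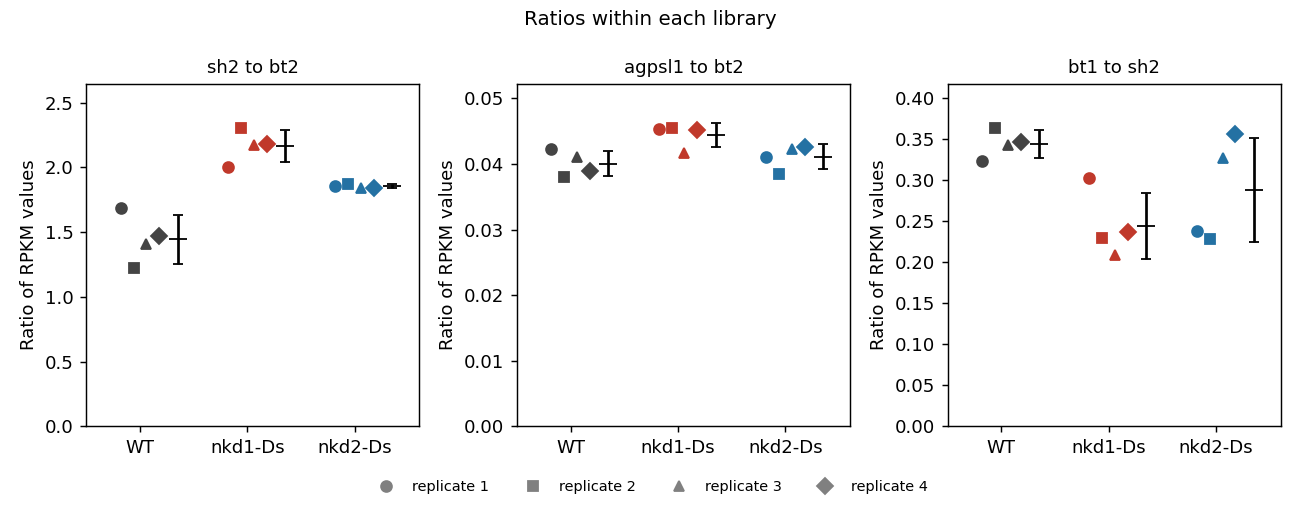
Ratios of RPKM values within each library: sh2 to bt2, agpsl1 to bt2 and bt1 to sh2. Points are the 4 replicates of each genotype and bars the mean with its SD; axes start at 0. The sh2 to bt2 ratio separates the 3 genotypes, at 1.22 to 1.68, 2.004 to 2.30 and 1.84 to 1.87, while the agpsl1 to bt2 ratio overlaps throughout.

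Other genes carrying an ADP-glucose pyrophosphorylase name did not follow bt2 as a group. Agpsemzm (GRMZM2G106213), a small subunit gene named for the embryo, had 98.3 ± 8.96 RPKM (WT), 81.9 ± 5.98 RPKM (nkd1-Ds) and 93.0 ± 7.75 RPKM (nkd2-Ds; SD, n = 4 each). Its log2 level fell by 0.26 in nkd1-Ds (limma adjusted p = 0.0162), and it was not called in nkd2-Ds (-0.08, limma adjusted p = 0.536). In WT its level per length was thus above that of agpsl1. AGP2 (GRMZM2G027955) rose in nkd1-Ds, from 16.8 ± 1.86 to 24.4 ± 1.74 RPKM (SD, n = 4 each; 0.52, limma adjusted p = 0.000481), and AGPLS3 (GRMZM2G144002) fell in nkd2-Ds, from 5.92 ± 0.584 to 4.76 ± 0.3598 RPKM (SD, n = 4 each; -0.26, limma adjusted p = 0.0271). Agpsemzm was no longer called with quantile normalization (limma adjusted p = 0.0554), or without nkd1-Ds replicate 3 or WT replicate 4, and AGPLS3 without any 1 of WT replicates 1, 3 and 4 and nkd2-Ds replicates 2, 3 and 4. By total reads all 3 were called higher in nkd1-Ds, where 61.5% of all genes were, and 0 were called in nkd2-Ds.

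Among the matched genes that feed carbon towards ADP-glucose, the 2 most abundant transcripts in WT were those of sucrose synthase genes. Of 14 symbols listed 8 matched the tables and 7 were tested, of which 5 fell in nkd1-Ds and 0 rose, beside 29.2% of all genes called lower and 26.5% called higher. The fructokinase gene frk2 and the cell wall invertase gene mn1 were not called. In nkd2-Ds 2 fell and 1 rose, beside 13.6% of all genes called lower and 12% called higher. The 2 became 1 without nkd2-Ds replicate 1 or any 1 of WT replicates 1, 3 and 4, and 3 without nkd2-Ds replicate 3. The median log2 difference was -0.69 and -0.23, beside -0.02 and -0.01 for all genes tested. The sucrose synthase gene sh1, which splits sucrose in the endosperm, had 3299 ± 367 RPKM (WT), 2047 ± 224 RPKM (nkd1-Ds) and 1724 ± 189 RPKM (nkd2-Ds; SD, n = 4 each). Its log2 level fell by 0.69 (limma adjusted p = 0.000453) in nkd1-Ds and by 0.94 (limma adjusted p = 0.000118) in nkd2-Ds. A further sucrose synthase gene, sus1, fell from 123 RPKM to 43.9 RPKM in nkd1-Ds and to 80.2 RPKM in nkd2-Ds, the weaker of the calls there (limma adjusted p = 0.0301), whereas sus2 fell in nkd1-Ds and rose in nkd2-Ds, from 27.3 RPKM to 6.26 and 46.3 RPKM. By total reads the counts over 8 genes tested were 3 lower and 1 higher in nkd1-Ds, beside 7.47% and 61.5% of all genes. In nkd2-Ds they were 1 lower and 1 higher, beside 4.61% and 12.1%.

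Of the matched genes that build and trim the glucan from ADP-glucose, most were not called in nkd2-Ds, as was true of all genes tested. Of 19 symbols 8 matched, all tested, of which 3 fell and 1 rose in nkd1-Ds, beside 29.2% of all genes called lower and 26.5% called higher. In nkd2-Ds 1 fell and 0 rose, beside 13.6% and 12%. The median log2 difference was -0.06 and -0.03. The list's symbol su2 had no match, but its gene, starch synthase IIa, is in the tables as sugary2, and it fell in both mutants, at -0.56 (limma adjusted p = 4.04e-05) and -0.57 (limma adjusted p = 0.00011). It was found by its closeness in pattern to bt1, itself called lower in both mutants, so its fall followed from how it was found. For that reason sugary2 is left out of the counts, and other symbols without a match were not sought in this way. The granule-bound starch synthase gene wx1, which makes amylose, had 3189 ± 108 RPKM in WT and 2146 ± 147 RPKM in nkd1-Ds (-0.57, limma adjusted p = 0.000285), but 3095 ± 154 RPKM in nkd2-Ds (-0.04, limma adjusted p = 0.789; SD, n = 4 each). The starch synthase gene du1 rose in nkd1-Ds from 127 to 166 RPKM (0.38, limma adjusted p = 0.00214), and the starch phosphorylase gene pho1 fell in nkd2-Ds from 216 to 169 RPKM (-0.35, limma adjusted p = 0.00427). By total reads the counts for the 8 were 1 lower and 6 higher in nkd1-Ds, where 61.5% of all genes were called higher, and 0 in nkd2-Ds. By quantile normalization they were 1 lower and 2 higher in nkd1-Ds, and 1 lower and 1 higher in nkd2-Ds.

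Levels of cell type markers moved alongside. The summed level of 4 starchy endosperm markers was 63344 to 77686 RPKM (WT), 42948 to 50195 RPKM (nkd1-Ds) and 65217 to 100198 RPKM (nkd2-Ds). This sum is mostly zein, and its members differed. In nkd1-Ds zp15 and fl2 were called lower, and zp27 was not called (17881 to 19133 RPKM, limma adjusted p = 0.737). The transcription factor gene o2 of the same list rose there, from 264 to 372 RPKM (limma adjusted p = 0.00117). In nkd2-Ds zp27 was called higher, at 30940 RPKM (limma adjusted p = 0.0183), as was o2, at 354 RPKM (limma adjusted p = 0.0110). There zp15 and fl2 were not called. The summed level of 4 aleurone markers, nkd1 among them, was 80.5 to 89.1 RPKM (WT), 18.5 to 23.6 RPKM (nkd1-Ds) and 76.6 to 133 RPKM (nkd2-Ds). In nkd1-Ds ole17, vp1 and nkd1 itself, from 49.2 to 12.8 RPKM, were called lower, and cr4 was not called. In nkd2-Ds ole17 rose from 31.7 to 68.6 RPKM (limma adjusted p = 0.00368). There nkd1 fell to 35.1 RPKM (limma adjusted p = 0.000217), and vp1 and cr4 were not called. The summed level of 4 basal transfer layer markers overlapped widely, at 46.8 to 226 RPKM (WT), 67.8 to 126 RPKM (nkd1-Ds) and 19.0 to 191 RPKM (nkd2-Ds). Even so, mrp1 of that list rose in nkd1-Ds, from 1.85 to 12.2 RPKM (limma adjusted p = 8e-09). The summed level of 3 embryo markers was 14.7 to 16.1 RPKM (WT), 16.3 to 19.9 RPKM (nkd1-Ds) and 31.0 to 61.5 RPKM (nkd2-Ds). Of these only glb1 was called in nkd2-Ds, from 6.02 to 34.7 RPKM (limma adjusted p = 4.5e-06). Only lg3 was called in nkd1-Ds, from 2.64 to 6.71 RPKM (limma adjusted p = 0.000117). The 2 markers of green tissue summed to at most 2.01 RPKM in any library. No matched marker was at 0 in all libraries of a group. The part of these shifts in the levels of sh2, bt2, agpsl1 and bt1 was not tested.

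Among 760 named genes whose mean reached 10 RPKM, those closest in pattern over the 12 libraries were found by the root mean square difference of log2(RPKM + 1) values after centring each gene. For bt2 the closest was tif4A2, a gene named for the translation initiation factor eIF-4A, at 0.0718, and its nearest other member of the 4 was agpsl1 at 0.0865. For agpsl1 no named gene was closer than bt2, and the next was orp2, a tryptophan synthase beta gene, at 0.0870. For bt1 the closest were nbp1 at 0.118 and sugary2, the gene of starch synthase IIa, at 0.123. The level of sugary2 was 143 RPKM (WT), 96.6 RPKM (nkd1-Ds) and 95.7 RPKM (nkd2-Ds). For sh2 the closest was fcr1 at 0.0722, and every other member was farther, with agpsl1 nearest at 0.208.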

How the data were processed

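Polyadenylated RNA of 12 whole endosperm samples was sequenced with a stranded kit, per the labels' protocols. Per the submitters' processing notes the tools included TopHat2 2.1.1, featureCounts, Cufflinks 2.2.1 and FastQC, whose roles the notes do not say. The build, the gene models and the strand setting of the counting were not given in the sources used here. The deposited tables hold 1 value per gene, judged from the values to be RPKM as made by the authors. Values were whole multiples of 1 step per gene, which gave whole reads for 34307 of 34307 genes above 0 (100% of them, tolerance 0.02 reads), the gene lengths and the library factors.

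Differences were fitted by the trended limma method (version 3.58.1, under R 4.3.3) to log2(RPKM + 1), with genotype as the single factor, in 26706 genes whose mean reached 1 RPKM in some group; a call is a two-sided Benjamini-Hochberg adjusted p under 0.05. Fold changes on this scale understate those of low genes. The fit called 14877 genes in nkd1-Ds and 6823 in nkd2-Ds against WT, and 11157 between the mutants. Within-library ratios were tested with an exact two-sided permutation test of log2 ratios (SciPy 1.17.1), adjusted over 9 tests, with 95% intervals from inverting it. The read recovery and the fit were tested on simulated data.

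Alternatives were a pseudocount of 0.1, no filter on low values, scaling by total reads, quantile normalization, only the 8 samples compared, a replicate block, voom on recovered reads and leaving out each replicate. Run on the recovered reads, voom called 15064, 6660 and 11348 genes. The 4 genes and the lists were chosen with earlier results of these data known. The genes of each list given with values are among those with the highest WT level. Genes with an ADP-glucose pyrophosphorylase name were added after the reference table, NCBI RefSeq's maize gene table, proved to hold no product names; sugary2 is in the text for its closeness in pattern. Symbols with no match or several identifiers were left out, except that AGP2 was assigned by hand to the entry whose only name is AGP2.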

Additional observations from a re-analysis of the deposited data

Results flagged for a closer look

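The ratio of agpsl1 to bt2 in nkd1-Ds stood out for a single library among 4: replicate 3 had 0.0417, where the other replicates had 0.0453, 0.0454 and 0.0453. The gap to the nearest library, divided by the range of the group, was 0.949, above Dixon's 95% critical value for 4 samples. Of 21 groups checked 1 was picked out in this way, and chance picks out about 1 in 20.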

How the results depend on the processing

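Of 108 values from alternatives that kept all 12 libraries, 96 were judged unchanged. For differences that were tested this meant the same direction and the same side of the threshold. Counts of genes called are also among the 108, and these have no direction and were judged by size. Paired differences of ratios are among them too, and these equal the unpaired differences by construction, so they could not change. With total-reads scaling, in nkd1-Ds against WT sh2 reversed to 0.52, bt2 weakened to -0.068, and agpsl1 and bt1 reversed to 0.080 and 0.018. In nkd2-Ds bt1 weakened to -0.36 and 4527 genes were called in place of 6823. Between the mutants, total-reads scaling gave -0.60 for sh2 and -0.48 for agpsl1, both now called, and reversed bt2 to -0.38 and bt1 to -0.38. Quantile normalization reversed sh2 to 0.53 in nkd1-Ds against WT and gave -0.57, called, between the mutants. Total-reads scaling moves the median of all genes; the cause was not tested for quantile normalization.

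Leaving out 1 library at a time gave, in nkd1-Ds against WT, -0.091 to 0.024 for sh2, -0.69 to -0.56 for bt2, -0.51 to -0.38 for agpsl1 and -0.64 to -0.41 for bt1. In nkd2-Ds the ranges were -0.29 to -0.20, -0.68 to -0.55, -0.61 to -0.52 and -0.59 to -0.42; only bt1 lost its call, without replicate 2 of nkd2-Ds. Between the mutants they were -0.27 to -0.15, -0.044 to 0.047, -0.18 to -0.055 and -0.11 to 0.12, so that bt2 and bt1, uncalled, had either sign. The sign of bt2 turned without nkd2-Ds replicate 1 (-0.044) and without nkd1-Ds replicates 3 (-0.043) and 4 (-0.018). That of bt1 turned without nkd1-Ds replicates 3 (-0.11) and 4 (-0.024) and nkd2-Ds replicates 3 (-0.057) and 4 (-0.062), and sh2 in nkd1-Ds without nkd1-Ds replicate 3 (0.024). Ratios of sh2 to bt2 kept their direction throughout, though 3 against 4 cannot give an exact p under 0.0571.

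Replicate numbers did not pair the samples: same-numbered libraries correlated at -0.276 to 0.125 over 12 pairs, and 3 of 24 correlated best with their own number. With a replicate block, 14282, 6039 and 10365 genes were called, and no call of the 4 genes changed; bt1 in nkd2-Ds had a limma adjusted p of 0.0462. With the block, 1 carbon supply gene in place of 2 was called lower in nkd2-Ds, sus1 losing its call (limma adjusted p = 0.0558). Paired differences of ratios cannot give an exact p under 0.125 with 4 pairs.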
